A study of Ciona robusta with 6 samples.

Results

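Fibroblast growth factor (FGF) genes and ephrin/Eph genes were followed across the heart of the adult tunicate Ciona robusta. Members were all listed genes whose symbol, in lower case and without a leading ci-, began with fgf or eph. This gave 13 of the 793 genes in the table, which by their symbols were 3 FGF ligands, 1 FGF receptor, 5 ephrins and 4 Eph genes. RNA-seq libraries were made from wild caught adults whose hearts had been cut into the pharyngeal blood sinus (PS), the stomach blood sinus (SS) and the cardiac tube (C), with 2 libraries for each section and 6 in all. PS and SS are the vessels joined to either end of the tube, and C is the contractile tube between them. Per the study's methods, hearts were pooled, the pericardium was taken off, and each sinus piece kept some of the tube muscle next to it, so the sinus libraries are not vessel alone. The comparisons ask which of these signalling genes separate the sinuses from the tube and the sinuses from each other. The sources used here do not say that the libraries of a section came from separate animals, so p-values measure the spread between these libraries, which may be technical.

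FGFs are secreted factors that bind receptor tyrosine kinases and signal through Ras and the MAPK cascade to Ets transcription factors. Ephrins are ligands tethered to the cell membrane, A-type by a lipid anchor and B-type by a transmembrane segment, and their Eph receptors are receptor tyrosine kinases that respond on cell contact. In the ascidian embryo, FGF and MAPK signalling to Ets factors specifies heart precursors, and ephrin-Eph contact dampens the FGF signal to ERK in neighbouring lineages. In mice, an ephrin-B ligand and an EphB receptor mark arterial and venous endothelium. The study had already named fgf9/16/20 and ephrinb as cardiac tube genes from these samples. It had also named nk4, irx-b and a tropomyosin for the tube, and fli/erg and ets/pointed for both sinuses. The direction of these genes below is therefore not independent evidence.

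Levels of the 13 genes spanned a wide range. On the FPKM scale, which divides by gene length, the mean over 6 libraries was highest for ephrin-a at 976, ephrinb at 692, ephrina-b at 358 and ephrina-c at 244. These ranked 92, 114, 171 and 212 among the 793 genes, and each stood above the next in 6 of 6 libraries. Next came fgf-na1 at a mean of 82.2 FPKM, fgfr at 72.9, eph-like at 72.5 and eph3 at 70.7, whose order was not stable. fgf-na1 was above fgfr in 3 of 6 libraries, and fgfr above eph-like, and eph-like above eph3, in 4 of 6. ephd at a mean of 35.8 FPKM and ephe at 20.2 followed. The lowest means were those of fgf9/16/20 at 7.64 FPKM, ephrina-d at 3.03 and fgfl at 2.69, with ephrina-d above fgfl in 4 of 6 libraries. At the low end the adjusted read values behind these levels were small, between 2 and 48 for the 3 genes, so that single libraries moved their means strongly.

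**Figure D1:**
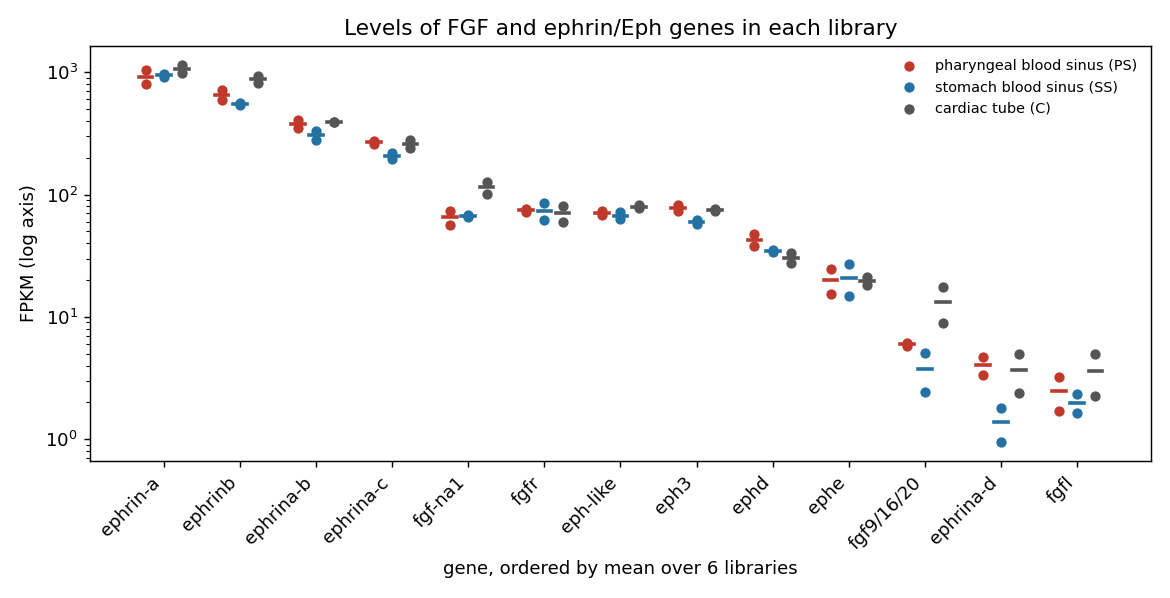
FPKM (log axis) of the 13 genes in each library, ordered by the mean over 6 libraries, with a point for each library and a line for the mean of its 2 libraries. The ephrins other than ephrina-d are the 4 highest genes, and fgf9/16/20, ephrina-d and fgfl are the lowest.

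None of the 13 genes passed the threshold in any comparison. The test was limma on log2(FPKM + 1), with p-values adjusted over all 793 genes and called under 0.05. Between PS and C, 0 of 13 members were called, where 7.44% of all genes were. For SS and C, 0 of 13 were called against 1.64% of all genes, for both sinuses and C 0 of 13 against 6.18%, and for PS and SS 0 of 13 against 1.26%. At an unadjusted p under 0.05 there were 2 members for PS and C, against 23.3% of all genes, and 4 members for SS and C, against 23.0%. There were 3 members for both sinuses and C, against 26.5%, and 1 member for PS and SS, against 14.9%. Other fits that kept all 6 libraries called up to 2 members in a comparison with C, namely fgf-na1 and ephrinb. All comparisons with C share the C libraries, and the one of both sinuses shares all 6 libraries with the others, so they are set side by side and are not separate evidence.

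Libraries of 2 sections can still be compared by whether they overlap. The deposited values had 1 factor removed that was learned from the replicates. Spread between the libraries of a section, and each SD below, can therefore be too small. Non-overlap can then be too frequent, for members as for all genes. Both PS libraries were below both C libraries for 4 of 13 members, where this held for 31.7% of all genes, and above them for 1 member, against 30.0%. Both SS libraries were below both C libraries for 9 of 13 members, against 30.3% of all genes, and above them for 1 member, against 31.1%. All 4 sinus libraries were below both C libraries for 4 members, against 21.4% of all genes, namely fgf9/16/20, fgf-na1, ephrinb and eph-like, of which eph-like turned above C when totals were set equal. ephd was the single member with all 4 sinus libraries above C, which held for 19.4% of all genes. Both PS libraries were above both SS libraries for 7 of 13 members, against 26.6% of all genes, and below them for 0 members, against 24.8%. SS had the lowest mean of the 3 sections for 8 of 13 members, or 61.5%, where it was lowest for 29.8% of all genes, and C had the highest mean for 7 members, or 53.8%, against 36.4%.

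Fitted differences showed the same order. The median log2 difference of the 13 members was −0.04 for PS minus C, −0.33 for SS minus C and 0.24 for PS minus SS, where the medians of all genes were −0.00, 0.02 and −0.00. It was negative for 7 members between PS and C, for 10 between SS and C and for 3 between PS and SS. Of all genes, 50.2%, 47.5% and 50.2% were negative. When FPKM were rescaled to equal totals over the listed genes, the median of all genes moved by 0.39 for PS minus C and 0.40 for SS minus C, and by −0.01 for PS minus SS. On that scale 4 members were negative for PS minus C and 5 for SS minus C, where 14.2% and 14.0% of all genes were. The member medians were then 0.37 and 0.08, where those of all genes were 0.39 and 0.42. So the counts of members below C depend on the scale, and the ones between the sinuses much less.

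**Figure D2:**
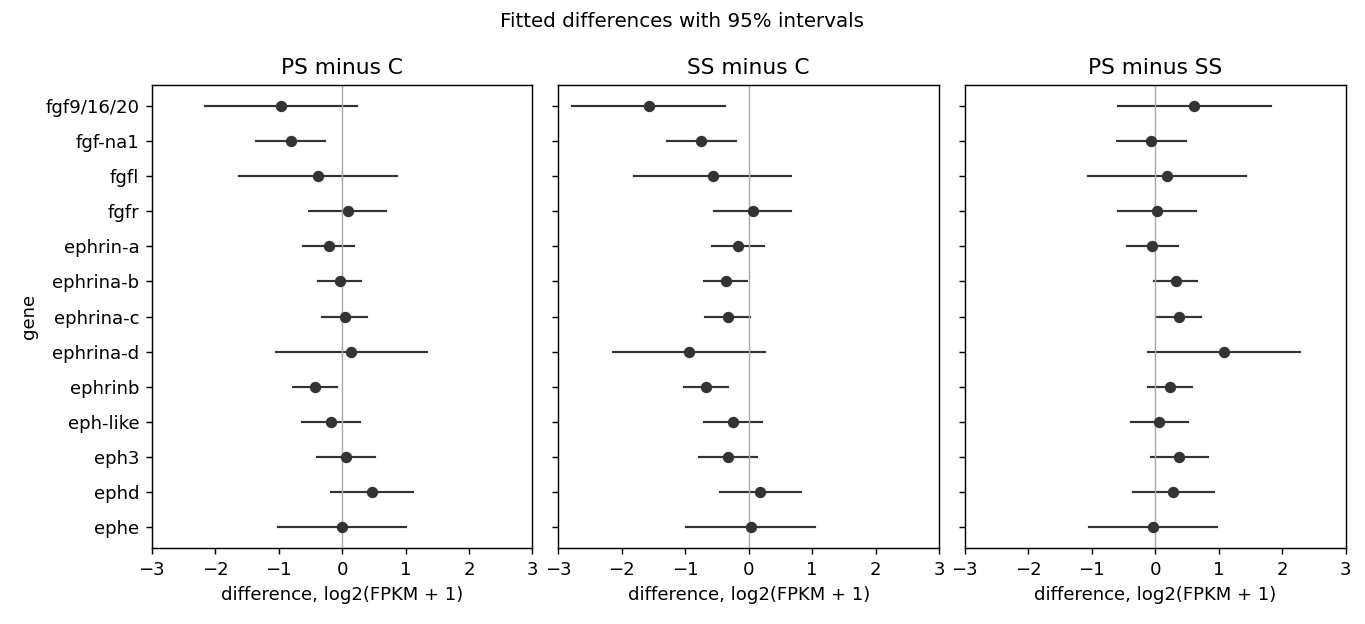
Fitted difference of each gene on the log2(FPKM + 1) scale, PS minus C, SS minus C and PS minus SS, with 95% intervals from limma. Intervals of fgf-na1 and ephrinb lie below 0 in both comparisons with C, but no adjusted p passed 0.05, and under equal totals eph-like, ephrin-a and ephrina-b change sign in both.

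The 3 FGF ligands are fgf9/16/20, fgf-na1 and fgfl, and fgf-na1 made up most of their signal, with 81.8% to 94.4% of their summed FPKM in the 6 libraries. fgf-na1, an FGF ligand whose name gives no vertebrate subfamily, had 73.5 and 56.5 FPKM in PS and 68.6 and 66.0 FPKM in SS, against 100.9 and 127.7 FPKM in C. All 4 sinus libraries were below both C libraries, and the sinuses overlapped each other. Its mean was 65.0 ± 12.0 FPKM in PS and 67.3 ± 1.85 in SS, against 114.3 ± 18.9 in C (SD, n = 2 each). The log2 difference was −0.81 ± 0.22 (SE) for PS minus C, with a limma adjusted p of 0.0888, and −0.75 ± 0.22 for SS minus C, with an adjusted p of 0.126. For both sinuses together it was −0.78 ± 0.19 (95% interval −1.25 to −0.30), with an adjusted p of 0.0652. It kept its sign in 16 of 16 alternative fits for each of these, with differences of −0.94 to −0.37 for both sinuses. Several of these fits could not turn a sign. They change only the error of a difference or leave out a library not in it. Between the sinuses the difference was −0.06, with a 95% interval of −0.61 to 0.48.

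fgf9/16/20 encodes the ascidian member of the FGF9, FGF16 and FGF20 subfamily, which in the embryo induces neural, notochord and mesenchyme fates. It had 5.77 and 6.15 FPKM in PS and 2.41 and 5.05 FPKM in SS, against 17.5 and 8.96 FPKM in C. The C libraries were the highest pair, yet they differed from each other by 1.95 times, and the SS libraries by 2.10 times. The group means were 5.96 ± 0.266 FPKM in PS and 3.73 ± 1.87 in SS, against 13.2 ± 6.04 in C (SD, n = 2 each). On the log2 scale the difference was −0.96 ± 0.49 (SE) for PS minus C, with a limma adjusted p of 0.308, and −1.58 ± 0.49 for SS minus C, with an adjusted p of 0.132. For both sinuses minus C it was −1.27 ± 0.43, with an adjusted p of 0.131. Of all members it had the largest difference in each of these 3, and also among the largest errors. When single libraries were left out, the SS minus C difference ran from −2.03 to −1.13, and the PS minus C difference from −1.41 to −0.52. PS stood 0.61 above SS on the log2 scale, with an adjusted p of 0.702 and a 95% interval of −0.59 to 1.82.

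fgfl, the FGF ligand with the lowest level, had 1.71 and 3.22 FPKM in PS and 1.63 and 2.35 in SS, against 4.97 and 2.25 in C. C overlapped both sinuses, and the adjusted read values were 8 to 23. Its log2 difference was −0.38 for PS minus C (adjusted p = 0.743) and −0.57 for SS minus C (adjusted p = 0.558).

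The receptor gene did not follow the ligands. fgfr, the listed FGF receptor tyrosine kinase, had 76.4 and 72.2 FPKM in PS and 85.1 and 62.3 in SS, against 60.1 and 81.0 in C. The 3 sections overlapped, with log2 differences of 0.09 for PS minus C (95% interval −0.52 to 0.70) and 0.06 for SS minus C (95% interval −0.55 to 0.67). The ratio of the 3 summed ligands to fgfr is free of scaling between libraries. It was 1.06 and 0.913 in PS and 0.854 and 1.18 in SS, against 2.05 and 1.71 in C, so that all 4 sinus libraries lay below both C libraries. fgf-na1 alone gave the same pattern over fgfr, with 0.962 and 0.783 in PS and 0.806 and 1.06 in SS, against 1.68 and 1.58 in C. The difference of these ratios was not tested, and with 2 libraries a section an exact permutation test could not fall below the threshold.

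**Figure D3:**
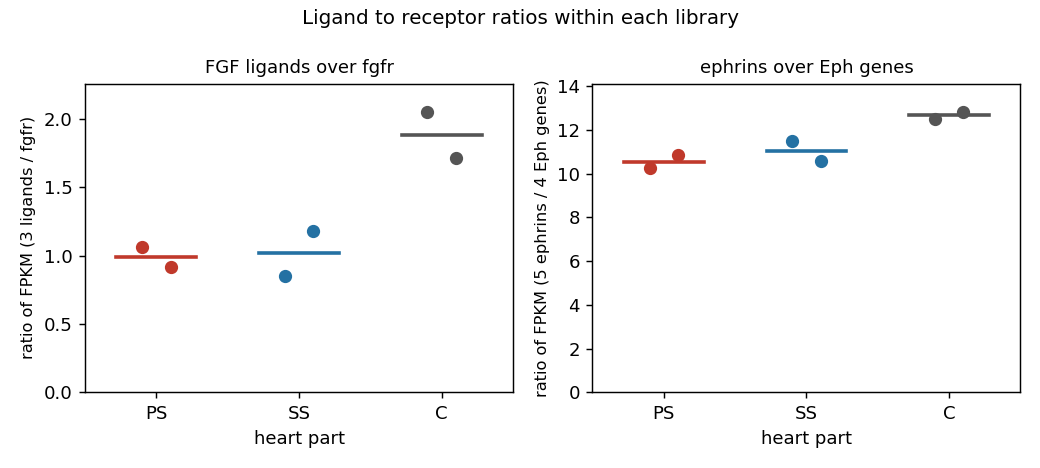
Ratio of summed FPKM of the 3 FGF ligands to fgfr (left) and of the 5 ephrins to the 4 Eph genes (right) within each library, with a line for the mean of each section. The FGF ratio is 0.854 to 1.18 in the sinus libraries and 1.71 and 2.05 in C, and the ephrin ratio is 10.3 to 11.5 in the sinus libraries and 12.5 and 12.8 in C.

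Among the ephrins, ephrinb had the clearest section pattern. ephrinb, the only ephrin of the B type by its symbol, had 589 and 716 FPKM in PS and 560 and 540 in SS, against 936 and 812 in C. All 4 sinus libraries were below both C libraries, and both PS libraries were above both SS libraries. Means were 653 ± 89.6 FPKM in PS and 550 ± 14.5 in SS, against 874 ± 88.0 in C (SD, n = 2 each). The log2 difference was −0.42 ± 0.14 (SE) for PS minus C, with a limma adjusted p of 0.134, and −0.66 ± 0.14 for SS minus C, with an adjusted p of 0.0828. For both sinuses minus C it was −0.54 ± 0.12 (95% interval −0.85 to −0.24), with an adjusted p of 0.0553, the smallest of any member. It kept a negative sign in 16 of 16 alternatives against C, several of which could not turn it. With equal totals the PS minus C value was only −0.02. The SS minus C difference ran from −0.77 to −0.25 over the alternatives, and from −0.77 to −0.56 when single libraries were left out. PS stood 0.24 above SS (95% interval −0.11 to 0.59, adjusted p = 0.521).

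The A-type ephrins did not share that pattern. ephrin-a, the member with the highest level, had 1045 and 799 FPKM in PS and 920 and 969 in SS, against 976 and 1150 in C. PS overlapped C, and SS lay just below it. The log2 differences were −0.21 for PS minus C (adjusted p = 0.523) and −0.17 for SS minus C (adjusted p = 0.584), and both were positive with equal totals, at 0.19 and 0.25. ephrin-a made up 36.3% to 48.2% of the summed ephrin FPKM and ephrinb 26.2% to 36.2%.

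ephrina-b and ephrina-c, also of the A type by symbol, were lowest in SS. ephrina-b had 352 and 408 FPKM in PS and 328 and 281 in SS, against 390 and 389 in C. ephrina-c had 259 and 275 FPKM in PS and 194 and 218 in SS, against 281 and 238 in C. PS overlapped C for both genes, and SS was below C and below PS without overlap. For SS minus C the log2 difference was −0.36 ± 0.14 (SE) for ephrina-b, with a limma adjusted p of 0.192, and −0.33 ± 0.15 for ephrina-c, with an adjusted p of 0.243, and with equal totals both were slightly positive, at 0.05 and 0.08. For PS minus SS, which scaling moved little, they were 0.32 ± 0.14 (adjusted p = 0.368) and 0.38 ± 0.15 (adjusted p = 0.318). ephrina-c was the one member with an unadjusted p under 0.05 between the sinuses, at 0.0412.

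ephrina-d is named as the ephrin that dampens FGF signalling in the ascidian neural lineage, and here it was among the lowest genes. It had 4.73 and 3.32 FPKM in PS and 1.81 and 0.948 in SS, against 2.39 and 4.97 in C. SS was below the other sections without overlap, but its adjusted read values were 4 and 2, against 10 and 7 in PS and 5 and 11 in C. The log2 difference was 1.09 ± 0.49 (SE) for PS minus SS (limma adjusted p = 0.392) and −0.94 ± 0.49 for SS minus C (adjusted p = 0.316).

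On the deposited scale the summed ephrins were the steadiest of the 4 class sums within a section. They came to 2250 and 2201 FPKM in PS and 2003 and 2009 in SS, against 2586 and 2594 in C. On the deposited scale the 3 sections did not overlap, in the order C, PS and SS, but as a share of all listed FPKM PS was above C and SS overlapped it. That share was 0.380% and 0.393% in PS and 0.366% and 0.334% in SS, against 0.333% and 0.345% in C. The FGF ligands stayed below C as a share, with 0.0137% and 0.0117% in PS and 0.0133% and 0.0122% in SS, against 0.0159% and 0.0185% in C. The sum of the Eph genes did not show that order, with 219 and 203 FPKM in PS and 174 and 190 in SS, against 207 and 202 in C. As a share of all listed FPKM it was 0.0370% and 0.0362% in PS and 0.0319% and 0.0316% in SS, above 0.0266% and 0.0269% in C without overlap. The ratio of ephrins to Eph genes was 10.3 and 10.8 in PS and 11.5 and 10.6 in SS, against 12.5 and 12.8 in C. All 4 sinus libraries were below both C libraries, as for the FGF ratio, though by a smaller margin. Within the ephrins, the ratio of ephrinb to ephrina-c was 2.28 and 2.60 in PS and 2.89 and 2.47 in SS, against 3.33 and 3.41 in C. All 4 sinus libraries were again the lower ones, while the ratio of ephrinb to ephrin-a overlapped between sections. These pairs were chosen after the levels had been seen and carry no test.

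**Figure D4:**
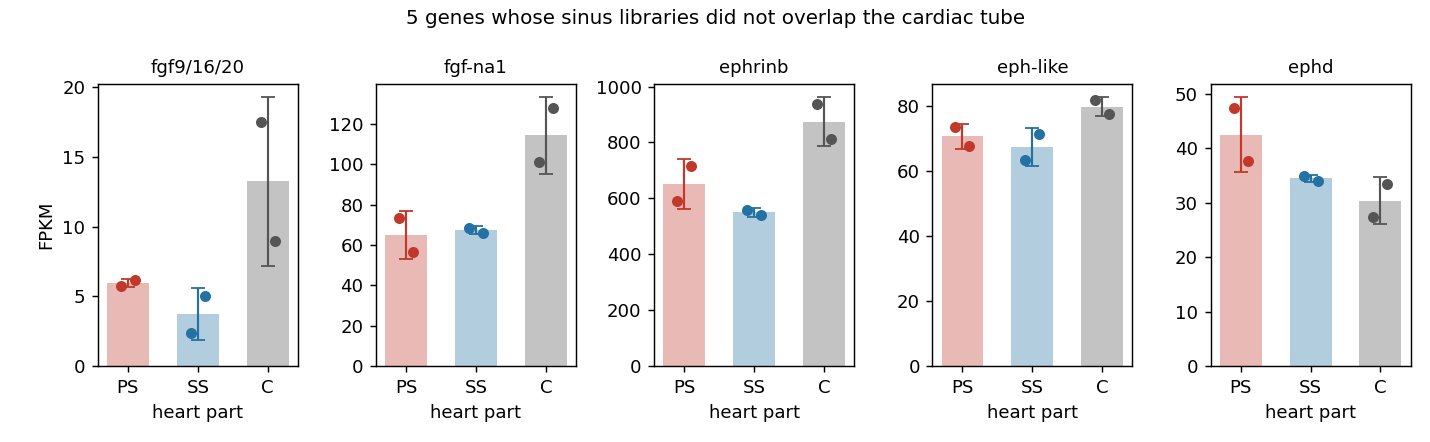
FPKM of the 5 members whose 4 sinus libraries did not overlap the 2 C libraries, with a bar for the mean, a whisker for the SD (n = 2) and a point for each library. fgf9/16/20, fgf-na1, ephrinb and eph-like are lower in the sinuses and ephd is higher, none past the adjusted threshold, and eph-like is above C in both sinuses once FPKM are set to equal totals.

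The 4 Eph genes, which encode receptors for ephrins, differed from each other in direction. ephd had 47.3 and 37.6 FPKM in PS and 34.9 and 34.0 in SS, against 27.3 and 33.4 in C. It was the only member with all sinus libraries above C, and the sections were ordered PS, SS and C. The log2 difference was 0.47 ± 0.26 (SE) for PS minus C (limma adjusted p = 0.351), 0.18 ± 0.26 for SS minus C (adjusted p = 0.720) and 0.33 ± 0.23 for both sinuses minus C (adjusted p = 0.427). It was positive in 16 of 16 alternatives for each, several of which could not turn a sign. Against eph-like, a ratio free of scaling, ephd was 0.646 and 0.555 in PS and 0.552 and 0.476 in SS, and lower in C at 0.334 and 0.430. Against eph3 the sinuses overlapped C, with 0.642 and 0.4576 in PS and 0.568 and 0.589 in SS, against 0.357 and 0.4580 in C.

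eph-like had 73.3 and 67.8 FPKM in PS and 63.3 and 71.4 in SS, against 81.8 and 77.6 in C. The gap between the sinus libraries and C was small, with log2 differences of −0.17 ± 0.19 for PS minus C (adjusted p = 0.671) and −0.24 ± 0.19 for SS minus C (adjusted p = 0.489), and with equal totals it was 0.23 and 0.17. eph3, whose product is the receptor for the ephrin that dampens FGF signalling in the ascidian embryo, had 73.8 and 82.2 FPKM in PS and 61.4 and 57.7 in SS, against 76.5 and 72.9 in C. SS was below both other sections, and PS overlapped C. Its log2 difference was 0.38 ± 0.19 for PS minus SS (95% interval −0.07 to 0.83, adjusted p = 0.418) and −0.32 ± 0.19 for SS minus C (adjusted p = 0.355), the last being 0.09 with equal totals. ephe had 24.8 and 15.4 FPKM in PS and 14.8 and 26.9 in SS, against 21.0 and 18.2 in C. The sections overlapped throughout, with differences of 0.00 and 0.03 from C and standard errors of 0.41.

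Genes downstream of FGF receptors were taken from lists of symbols. The 6 listed MAPK genes held 0 called genes in any comparison. Their median log2 difference was −0.14 for PS minus C and −0.15 for SS minus C, negative for 4 and 5 genes, against 50.2% and 47.5% of all genes. erk1/2, the terminal kinase of the cascade, had 602 and 584 FPKM in PS and 594 and 583 in SS, against 631 and 648 in C, a log2 difference of −0.11 for PS minus C (adjusted p = 0.609) and −0.12 for SS minus C (adjusted p = 0.536). jnk had the lowest value of the list for SS minus C, at −0.26 (adjusted p = 0.224), and p38 for PS minus C, at −0.25 (adjusted p = 0.539). The patterns had missed 5 mapkk and mapkkk genes, of which 0 were called. mapkk1/2, the kinase that acts on ERK, had −0.12 for PS minus C (adjusted p = 0.685) and −0.28 for SS minus C (adjusted p = 0.295).

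Of the 14 ETS and early response genes, 1 was called for PS minus C and for both sinuses minus C and 0 in the other comparisons, close to the 7.44% and 6.18% of all genes called. The called gene was fli/erg1, of the ETS family whose vertebrate members are known from endothelium and blood. It rose in PS, with 80.4 and 72.2 FPKM in PS against 34.6 and 38.5 in C, a log2 difference of 1.04 ± 0.20 (SE) and a limma adjusted p of 0.0385. In SS it had 68.4 and 66.1 FPKM, a difference of 0.86 from C with an adjusted p of 0.0962. ets/pointed1, an ETS gene by its symbol, had 26.8 and 28.7 FPKM in PS and 24.7 and 21.7 in SS, against 12.0 and 12.2 in C, with differences of 1.13 ± 0.28 (adjusted p = 0.0679) and 0.88 ± 0.28 (adjusted p = 0.137). ets/pointed2, added after its values were seen, had 118 and 139 FPKM in PS and 114 and 128 in SS, against 153 and 120 in C, and the sections overlapped, with differences of −0.08 (adjusted p = 0.890) and −0.16 (adjusted p = 0.649). fos, an early response factor, lay on the other side of C, with 94.5 and 120.7 FPKM in PS and 72.6 and 68.5 in SS, against 155.1 and 131.3 in C. Its difference was −0.41 for PS minus C (adjusted p = 0.283) and −1.01 ± 0.20 for SS minus C (adjusted p = 0.0693). Also below C in all 4 sinus libraries were erf2, fli/erg4, dusp1.2.4.5, dusp6.9 and dusp8.16 of the same list. All 4 lay below C for 21.4% of all genes. ese was above C in all 4, as were fli/erg1 and ets/pointed1, against 19.4% of all genes. For SS minus C, dusp1.2.4.5 had −0.71 (adjusted p = 0.103), dusp6.9 −0.44 (adjusted p = 0.130) and dusp8.16 −0.26 (adjusted p = 0.192). For PS minus C these genes had −0.19, −0.34 and −0.04, in that order. erf2 had −0.52 for PS minus C (adjusted p = 0.109) and −0.53 for SS minus C (adjusted p = 0.126). fli/erg4 had −0.35 (adjusted p = 0.296) and −0.38 (adjusted p = 0.268). Of the 14 genes, 9 were negative for PS minus C and 10 for SS minus C, against 50.2% and 47.5% of all genes. Between the sinuses, 50.2% of all genes were lower in PS. Of the 14 genes, 13 were higher in PS, with a median of 0.20, and 0 passed the threshold. The largest were fos at 0.59, dusp1.2.4.5, a MAPK phosphatase gene by its symbol, at 0.52 (adjusted p = 0.242 for both) and ese, an ETS gene, at 0.46 (adjusted p = 0.334). A further 3 ETS genes that the patterns missed held 0 calls.

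The remaining lists held 0 called genes. They were the 3 embryonic FGF targets (nodal, foxf and twist-like-2), the 4 other receptor tyrosine kinase or ligand genes (egfr1, ror, ins-l1 and ins-l2) and the 2 small GTPases that transduce Eph signals (cdc42 and rhoa). foxf, which FGF signalling switches on in the ascidian heart lineage, was lower in both sinuses, at −0.77 ± 0.28 for PS minus C (adjusted p = 0.167) and −0.63 ± 0.28 for SS minus C (adjusted p = 0.257). nodal, a TGF-beta ligand, was at 0.89 ± 0.79 for PS minus C (adjusted p = 0.588), within its error. cdc42 and rhoa were within 0.14 of C in both sinuses.

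Heart muscle markers moved with the comparison to C. All 5 listed cardiac muscle markers (nk4, irx-b, tropm1, smyd1 and if-a) were lower in the sinuses, and their summed level was 47299 to 52415 FPKM in PS and 64196 to 65878 in SS, against 120625 to 128040 in C. Most of each sum was if-a, with 39726 to 57531 FPKM in the sinus libraries, against 110117 and 118307 in C. tropm1 had 6341 to 7352 FPKM in the sinus libraries, against 9102 and 8245 in C, and nk4 had 320 to 445, against 611 and 616. Fewer cells of a type and less RNA per cell cannot be told apart in bulk tissue. Against tropm1, a tropomyosin, ephrinb gave 0.0929 and 0.106 in PS and 0.0792 and 0.0734 in SS, against 0.103 and 0.0985 in C. Against nk4, a heart transcription factor, fgf-na1 gave 0.199 and 0.176 in PS and 0.172 and 0.148 in SS, against 0.165 and 0.207 in C. In both ratios PS overlapped C, and in the first SS was below C without overlap. Against nk4, ephrinb gave 1.60 and 2.23 in PS, above C, and 1.41 and 1.21 in SS, overlapping C, against 1.53 and 1.32 in C. The part of muscle content in the members' differences was not tested.

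Other tissues were marked as well. The 3 pharynx and endostyle markers (endostyle-specific, pax3/7-like and tgfbeta2) summed to 323 to 1175 FPKM in PS and 102 to 112 in SS, against 57.9 to 85.7 in C. The SS sum was mostly tgfbeta2, which the paper associates with the vertebrate arterial pole. endostyle-specific, at 21.5 and 9.94 FPKM in SS against 27.8 and 9.21 in C, and pax3/7-like overlapped between SS and C. The 3 nervous system markers summed to 167 to 276 in PS and 13.8 to 26.2 in SS, mostly gnrh1 in SS, against 4.19 to 5.03 in C. The 5 sperm and axoneme markers reached 188 to 424 FPKM in SS, where PS had 26.5 to 68.6 and C 45.1 to 51.1. The 3 stomach and gut markers (gh18, ciap and foxa-a) gave 113 to 134 FPKM in PS, 157 to 201 in SS and 102 to 131 in C. Most of each sum was ciap. gh18 overlapped between SS and C, with 25.9 and 67.3 FPKM in SS against 32.2 and 23.6 in C. foxa-a went the other way, with 0.995 and 0.834 in SS against 6.11 and 4.58 in C. The 4 vanabins, blood cell proteins, gave 12415 to 15208 in PS, 7801 to 9786 in SS and 10617 to 11255 in C. PS was above SS in vanabins, as for the 7 members above, and the part of any of these tissues was not tested. Totals of the adjusted read values over the listed genes were 1412759 to 1950483 for the 6 libraries, and the read depth itself is unknown. Summed FPKM of the listed genes were higher in C, and if-a, the most abundant marker, took 7.08% to 7.63% of them in PS and 9.56% to 10.3% in SS, against 14.2% to 15.8% in C.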

How the data were processed

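Adult heart sections gave 6 libraries in 3 groups of 2, as the labels state. The submitters' processing notes name cutadapt, STAR, featureCounts of Subread and DESeq2, without versions. The study's methods state versions for its zebrafish libraries and say that the Ciona libraries were handled alike, with the UCSC genome ci3. They describe a correction with RUVs that removed 1 unwanted factor, learned from the replicates. The deposited FPKM were made by the authors from adjusted values divided by gene length and by size factors of 0.977 to 1.03. The deposited columns headed as raw were treated as a score, since over the 179 genes with a mean above 1000 a single weighted sum of the replicate differences was at most 0.000695 in size, where the median difference was 0.0835. They are the authors' rounded reads after the factor was removed, so no count model was used. The deposited log2 fold changes, p-values, adjusted p-values and group averages are the authors' own comparisons and were not used. Linear models for all 793 genes came from limma 3.58.1 (R 4.3.3). The response was log2(FPKM + 1), so the pseudocount was 1, and the model held 3 group means, a term for the removed factor and a variance trend, leaving 2 residual and 4.02 prior degrees of freedom, and no low-value filter. P-values were two-sided and adjusted by Benjamini-Hochberg within each comparison. The median standard error was 0.209. Differences understate changes of low genes because of the pseudocount. The fit was tested on simulated data.

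Members and lists were chosen with earlier results of these data known. Every member is named. Pathway genes were named where called or among the 3 largest differences of a list, not all of which are printed. erk1/2, mapkk1/2, ets/pointed2, erf2, fli/erg4, dusp6.9 and dusp8.16 were added after their values were seen. A heparan sulphate list matched 0 symbols. None of the symbols matched the reference table (0 matches), so no coordinates or sequences are printed. Whether near-identical copies share reads was not checked. Alternatives covered the factor term, a replicate block, the trend, pseudocounts of 0.1 and 10, a filter at 5 FPKM, scaling and each library left out.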

Additional observations from a re-analysis of the deposited data

How the results depend on the processing

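Of 824 member differences refitted under alternatives, 756 kept their sign and side of the threshold, 17 kept their sign and passed it, and 51 turned sign. Fits that changed only the term, the block, the trend or the filter left each difference as it was and could not turn its sign. The same held for fits without a library of a section not compared. More than 0 members were called without the factor term (1 for PS and C, fgf-na1; 1 for SS and C, ephrinb; 2 for both sinuses, fgf-na1 and ephrinb), with adjusted values in place of FPKM (1 for SS and C, ephrinb; 2 for both sinuses), and with genes under a mean of 5 FPKM left out (2 for both sinuses). Members were also called in comparisons with C when either PS library was left out. The lone library is then assumed to vary like the other groups. In these 2 fits the prior degrees of freedom were infinite, against 4.02 in the main fit, so a gene's own spread had no weight in its p-value. Their calls, of members or of all genes, therefore do not show a stronger difference. All genes called, 59 for PS and C, 13 for SS and C, 49 for both sinuses and 10 for PS and SS, became 151, 113, 175 and 33 without the term and 124, 114, 176 and 22 with equal totals. Without the trend the first 3 were 13, 0 and 1. For SS and C the count was 2 with a pseudocount of 0.1, 2 with one of 10, 26 with the filter and 32 with adjusted values, and for PS and SS it was 2 with a pseudocount of 0.1, 3 with the filter and 17 with adjusted values. Leaving out each library gave 0 to 81, 0 to 92, 0 to 116 and 0 to 58. With the replicate block beside the term, 0 genes and 0 members were called in all 4 comparisons. With the block in place of the term, chosen after seeing the data, the counts were 61, 13, 49 and 10 with 0 members. Same-numbered deviations correlated at −0.505, −0.419 and −0.550 over 732 genes, but the removed factor lay along the number (cosine 0.997), which by construction leaves them near such values, so whether the numbers pair the samples could not be checked.

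With equal totals the sign turned for ephrin-a (0.19 for PS minus C, 0.25 for SS minus C, 0.22 for both sinuses), ephrina-b (0.37, 0.054 and 0.21), eph-like (0.23, 0.17 and 0.20), ephrina-c (0.080 for SS, 0.26 for both) and eph3 (0.086 for SS, 0.27 for both). With equal totals that leave out the 10 most abundant genes, chosen after seeing the data, the median of all genes moved by 0.18 and 0.21, and the sign turned for ephrina-b (0.15 for PS, 0.00454 for both), eph-like (0.012 for PS), ephrin-a (0.052 for SS, 0.014 for both), ephrina-c (0.059) and eph3 (0.070) for both, and fgfr (−0.00355) for PS minus SS. ephe, at 0.00 for PS minus C, became −0.000530 with a pseudocount of 0.1 and −0.000398 with adjusted values. Leaving out single libraries turned signs for PS minus C in fgfl (−0.82 to 0.058), fgfr (−0.12 to 0.30), ephrina-b (−0.14 to 0.068), ephrina-c (−0.077 to 0.16), ephrina-d (−0.26 to 0.55), eph3 (−0.018 to 0.14) and ephe (−0.33 to 0.33). It did so for SS minus C in fgfr (−0.16 to 0.28) and ephe (−0.38 to 0.44), and for both sinuses in fgfr (−0.14 to 0.29), ephrina-d (−0.81 to 0.0084) and ephe (−0.19 to 0.22). For PS minus SS it did so in fgf-na1 (−0.25 to 0.12), fgfl (−0.13 to 0.50), fgfr (−0.20 to 0.25), ephrin-a (−0.24 to 0.15), eph-like (−0.018 to 0.15) and ephe (−0.44 to 0.38). The cause was not tested for any of these. With 2 libraries a section and unknown read depth, a member that missed the threshold is not shown to be equal between sections.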

Other observations

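Genes most like a member were listed by Pearson r over the 6 libraries on log2(FPKM + 1), among genes with a mean of 5 FPKM or more. These r are descriptions without a test, since the 6 points are the same libraries in 3 sections and share the removed factor. ephrinb was closest to tef/hlf (0.997), cimsi (0.994) and lasp (0.991). fgf9/16/20 was closest to collagen xviii (0.989), meta3 (0.983) and tnfa (0.981), and fgf-na1 to ck2a (0.985), erk1/2 (0.983) and zf(c2h2)-129 (0.982). ephd was closest to wnt5 (0.961), c3-1 (0.944) and loc494385 (0.934). ephrina-b was closest to hox5 (0.989) and eph3 to rar (0.987), the retinoic acid receptor. Among members, the highest r were those of eph3 with ephrina-b (0.942) and of fgf9/16/20 with eph-like (0.931) and ephrinb (0.886).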
